A study of Homo sapiens with 6 samples.

Results

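Matrix proteoglycans are proteins of the extracellular matrix that carry long sulfated sugar chains, the glycosaminoglycans. The 10 genes described here encode the small leucine-rich proteins biglycan (BGN), decorin (DCN), lumican (LUM), fibromodulin (FMOD) and PRELP, the large chondroitin sulfate proteoglycan versican (VCAN), the basement membrane heparan sulfate proteoglycans perlecan (HSPG2) and agrin (AGRN), and the testicans SPOCK1 and SPOCK2. They were matched by gene symbol among 60664 genes of the deposited table. The family was chosen by protein class, and it was selected on the lower counts of BGN and SPOCK1 in the knockdown libraries, so the values of these 10 genes in that comparison are given as a description, without a p-value.

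The cells were SKOV3, an established human ovarian carcinoma line. In 3 libraries (shJUP 1 to 3) the gene JUP, which encodes the junction protein plakoglobin, was knocked down by a short hairpin RNA, and 3 libraries (shNC 1 to 3) carried the control hairpin; the labels give the control genotype as WT. The labels describe the replicates as biologically independent and do not say what a library number stands for, nor whether the knockdown cells are 1 clone or a pool. Other effects of the hairpin and those of lower JUP cannot be told apart in this design.

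Small leucine-rich proteoglycans bind collagen fibrils and set their spacing and thickness, and biglycan and decorin also hold growth factors such as those of the TGF-beta family. Versican forms hydrated complexes with hyaluronan around cells and is known from the stroma and ascites of ovarian carcinoma. Perlecan and agrin are built into basement membranes, where their heparan sulfate chains bind growth factors. Testicans are secreted proteoglycans with a calcium-binding domain and a protease-inhibitor-like domain.

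Library totals ranged from 17456121 to 19279514 estimated counts, and levels are given as CPM, counts scaled to a common library size with TMM factors. At this depth 3 counts, taken as the floor of detection in 1 library, corresponded to 0.159 to 0.167 CPM. JUP itself stood at 39.9, 93.4 and 24.6 CPM in shJUP 1 to 3 and at 104, 132 and 101 CPM in shNC 1 to 3, so shJUP 2 kept 83.0% of the mean control level. The carcinoma markers PAX8 (253 to 392 CPM) and KRT8 (494 to 838 CPM) were present in each library, whereas EPCAM (1.25 to 4.61 CPM) and MUC16 (at most 0.636 CPM) were low. The summed level of 9 markers listed for ovarian carcinoma lines was 7185 to 8817 CPM in shJUP and 9346 to 11318 CPM in shNC. Most of this sum was ERBB2 (2317 to 4416 CPM in shJUP, 4218 to 6895 CPM in shNC) and VIM (2895 to 3569 and 3100 to 3759 CPM). The mean was higher in shJUP for PAX8, KRT8 and KRT18 and lower for the others. The summed level of 11 fibroblast markers was 537 to 650 CPM in shJUP and 702 to 1138 CPM in shNC. Of the 11, 8 reached 1 CPM and none was at 0 in all libraries. Most of this sum was S100A4 (250 to 591 CPM in shJUP, 593 to 667 CPM in shNC) and COL1A1 (8.75 to 252 and 38.2 to 400 CPM).

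The promoter of BGN is shown because BGN was counted in each control library and in no knockdown library, and that of HSPG2 because it is a member whose group means were close together. Sequences are from RefSeq (GRCh38.p14), whose promoter table held 6 of the 10 members. The BGN stretch is on the plus strand at chrX:153494730-153494938, upstream of the first annotated exon of BGN and within an intron of HAUS7, a gene on the opposite strand. The HSPG2 stretch is on the minus strand at chr1:21937311-21937560 and overlaps no gene in GENCODE 29. Capitals mark the GC box GGGCGG and the TCF/LEF motif, the latter searched as CTTTG followed by any pair of A and T letters, on both strands.
BGN: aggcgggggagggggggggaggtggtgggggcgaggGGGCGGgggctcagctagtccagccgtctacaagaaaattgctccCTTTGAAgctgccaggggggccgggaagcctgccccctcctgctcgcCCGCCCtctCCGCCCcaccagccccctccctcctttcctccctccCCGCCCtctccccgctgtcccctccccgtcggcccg
HSPG2: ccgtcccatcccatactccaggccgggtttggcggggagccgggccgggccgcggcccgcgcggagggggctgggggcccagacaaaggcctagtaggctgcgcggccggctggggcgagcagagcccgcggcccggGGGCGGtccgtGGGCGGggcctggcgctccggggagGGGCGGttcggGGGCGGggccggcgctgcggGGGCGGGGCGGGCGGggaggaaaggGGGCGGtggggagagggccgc

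Over the 250 bases before the annotated start the GC content was 74% for BGN and 82.8% for HSPG2, against a median of 58% over 35116 such windows. The BGN window held 5 GC boxes, of which the last lies past the stretch shown, and the HSPG2 window held 8. At least 1 GC box was present in 42.6% of all windows. One TCF/LEF match was found 169 bases before the start of BGN and none in the window of HSPG2, VCAN, PRELP or FMOD, and 1 in 1 of the 2 windows of SPOCK2. Such a match was present in 12.0% of all windows. Neither the BGN nor the HSPG2 window held a match to the TATA box TATAAA (10.7% of all windows), the AP-1 motif TGANTCA (6.57%), the STAT motif TTCNNNGAA (6.57%) or the E-box CANNTG (61.8%), each searched on both strands. These are matches of letters and do not show that a factor binds.

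Biglycan transcripts were counted in the control libraries and in none of the knockdown libraries. BGN (ENSG00000182492) had 45, 88 and 30 counts in shNC 1, 2 and 3, or 2.48, 4.67 and 1.63 CPM. It had 0 counts in shJUP 1, 2 and 3. The groups therefore did not overlap, and shJUP 2, which kept most of its JUP, was at 0 like the other two. With a floor of 3 counts in each knockdown library, the mean control level of 2.93 ± 1.57 CPM (SD, n = 3) was 18.1-fold the mean floor in shJUP. The lowest control was 9.75-fold the highest of these floors. The 95% upper limit for a count of 0 (exact Poisson) was 3.69 counts, above the floor used. The control level itself was low: per kb of exon BGN lay at the 25.7th percentile of the tested genes. A count of 0 does not exclude transcripts below the floor, and fewer cells with BGN and less BGN in each cell cannot be told apart in bulk RNA.

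The neighbouring gene HAUS7, which runs across the start of BGN on the opposite strand, had 162, 197 and 274 counts in shJUP 1 to 3 and 207, 143 and 209 in shNC 1 to 3. It was thus counted in each library, with overlapping groups. No exon of HAUS7 overlaps an exon of BGN in GENCODE 29. Whether counting used strand is not given in the sources used here.

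**Figure D1:**
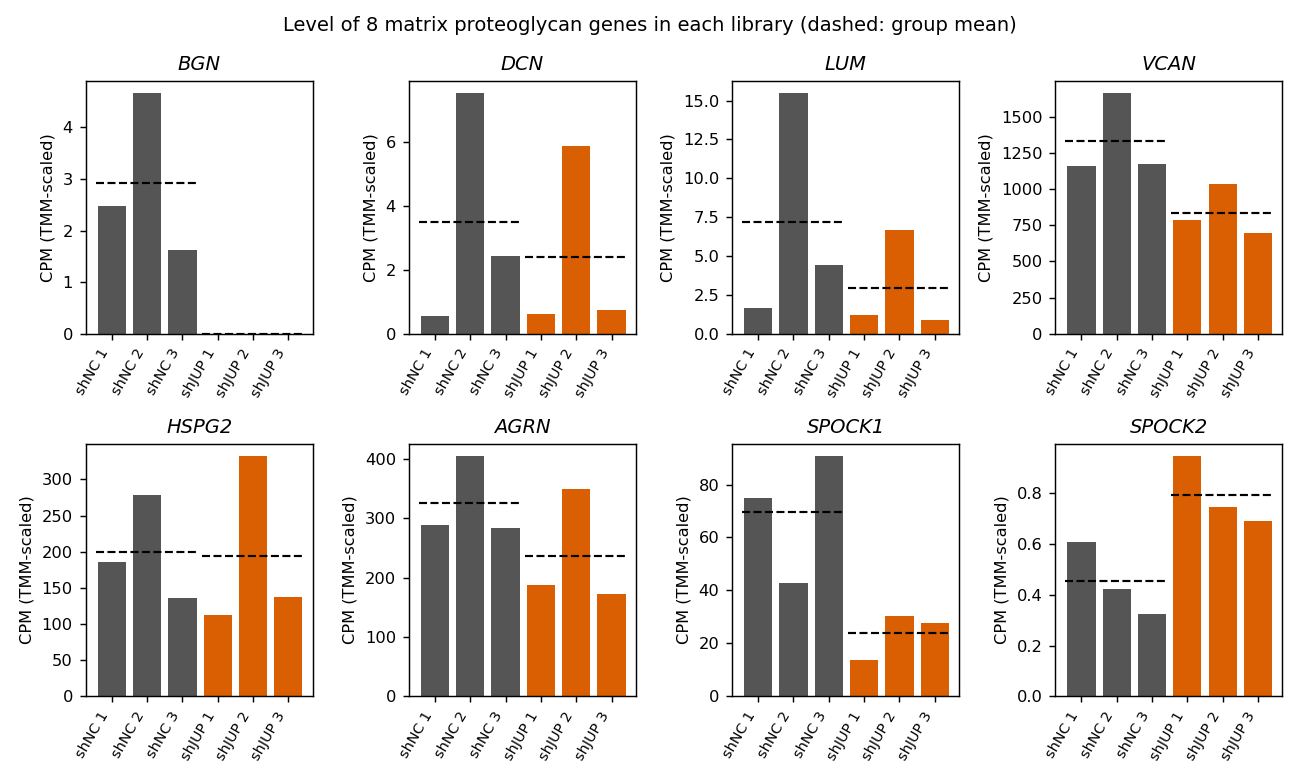
CPM after TMM scaling (vertical axes, each from 0 and each with its own range) of 8 proteoglycan genes in shNC 1 to 3 (grey bars) and shJUP 1 to 3 (orange bars), with dashed lines at the group means. BGN is at 0 in the 3 knockdown libraries, and LUM, DCN, HSPG2, AGRN and VCAN are highest in number 2 of each group.

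Decorin and lumican, which like biglycan are small leucine-rich proteoglycans, were low in level and highest in library number 2 of each group. DCN (ENSG00000011465) was at 0.613, 5.86 and 0.742 CPM in shJUP 1 to 3 and at 0.552, 7.53 and 2.45 CPM in shNC 1 to 3. LUM (ENSG00000139329) had 1.23, 6.66 and 0.901 CPM in the knockdown libraries and 1.66, 15.5 and 4.40 CPM in the controls, in the same order. The groups overlapped for both genes, since shJUP 2 lay above shNC 1 and shNC 3. The log2 difference of shJUP over shNC was -0.54 (SE 1.07) for DCN and -1.29 (SE 0.97) for LUM. Without shNC 2 that of DCN was 0.68, and without shJUP 2 it was -2.36. With both number-2 libraries left out it was -1.13 (SE 0.71), and with library number added to the fit -0.68 (SE 0.39). The sign of DCN thus changed only where shNC 2 was left out and shJUP 2 kept. LUM stayed below 0 with each library left out, between -2.75 and -0.05.

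DCN and LUM are also transcribed by fibroblasts, and some genes of the fibroblast marker list were highest in shNC 2. The collagen genes COL1A1 (400 CPM) and COL3A1 (45.9 CPM) and the matricellular gene POSTN (44.1 CPM) were at their highest there. In shJUP 2 these genes were at 32.2, 0.160 and 0.479 CPM, and COL1A1 was next highest in shJUP 1, at 252 CPM. The receptor gene PDGFRA was at 0.947, 2.08 and 1.06 CPM in shJUP 1 to 3 and at 0.883, 3.23 and 0.978 CPM in the controls. ACTA2, smooth muscle actin, was at 0.334, 0.692 and 0.636 CPM in shJUP 1 to 3 and at 0.497, 2.7 and 0.978 CPM in the controls. PDGFRA and ACTA2 were thus highest in number 2 of each group, as DCN and LUM were, and so were POSTN, FAP and THY1. In shJUP, however, POSTN, FAP and THY1 were near the floor, at most at 0.479, 0.320 and 0.213 CPM. THY1 was at 0.213 CPM in shJUP 2 against 0.212 CPM in shJUP 3. COL1A1, COL1A2, COL3A1, PDGFRB, PDPN and S100A4 were not highest in number 2 of each group, and PDGFRB was also near the floor. S100A4 was at 250, 591 and 510 CPM in shJUP 1 to 3 and at 642, 593 and 667 CPM in the controls. PDPN was at 22.3, 20.7 and 15.9 CPM in shJUP 1 to 3 and at 16.6, 21.2 and 19.3 CPM in the controls. PDGFRB reached at most 0.318, THY1 0.265 and FAP 0.583 CPM in any library. The part of other cells in these values was not tested.

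The remaining small leucine-rich members were hardly or not detected. FMOD, a collagen fibril organiser, had 0 counts in all 6 libraries. PRELP, a heparin-binding member, had 1 to 4 counts per library after rounding. Neither was tested, and no group difference was detectable at this depth.

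Versican was by far the most abundant member and was lower in each knockdown library than in each control. VCAN (ENSG00000038427) was at 783, 1031 and 696 CPM in shJUP 1 to 3 and at 1157, 1663 and 1171 CPM in shNC 1 to 3. The groups did not overlap, and number 2 was the highest library in each. Knockdown libraries averaged 837 ± 174 CPM and controls 1330 ± 288 CPM (SD, n = 3 each), a log2 difference of -0.67 (SE 0.20). The knockdown library of each pair held 67.7%, 62.0% and 59.4% of its own-number control for numbers 1, 2 and 3, a narrower range than that of JUP, which stood at 38.4%, 70.6% and 24.3%. The difference lay between -0.85 and -0.48 on the log2 scale with each library left out.

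The basement membrane proteoglycans AGRN and HSPG2 had group differences that were not separated from each other beyond their SEs. AGRN (ENSG00000188157) was at 188, 350 and 172 CPM in shJUP 1 to 3 and at 289, 406 and 284 CPM in shNC 1 to 3. Each knockdown library was below the control of its own number, at 65.2%, 86.4% and 60.6%, but shJUP 2 lay above shNC 1 and 3. The log2 difference was -0.46 (SE 0.29). HSPG2 (ENSG00000142798) had 112, 333 and 137 CPM in the knockdown libraries and 186, 278 and 136 CPM in the controls, in the same order. The highest of these 6 values was a knockdown library, and the means of 194 ± 121 and 200 ± 72.1 CPM (SD, n = 3 each) were close. The log2 difference of HSPG2 was -0.04 (SE 0.44) and changed sign without shNC 2 (0.27), shJUP 1 (0.24) or shJUP 3 (0.16). It stayed below 0 without shNC 1 (-0.09), shNC 3 (-0.25) or shJUP 2 (-0.68, SE 0.30). With both number-2 libraries left out HSPG2 was at -0.36 (SE 0.18) and AGRN at -0.66 (SE 0.11). Some exons of HSPG2 overlap LDLRAD2 on the opposite strand, which had 4.13 to 8.66 counts per library.

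The testicans differed in opposite directions, at very different levels. SPOCK1 (ENSG00000152377) was at 13.8, 30.5 and 27.6 CPM in shJUP 1 to 3 and at 74.8, 42.7 and 90.9 CPM in shNC 1 to 3. The groups did not overlap, and here number 2 was the lowest control and the highest knockdown library. The mean was 24.0 ± 8.95 against 69.4 ± 24.5 CPM (SD, n = 3 each), with a log2 difference of -1.53 (SE 0.36). Each knockdown library kept 18.4%, 71.5% and 30.3% of the control of its number. SPOCK2 (ENSG00000107742) had 17, 14 and 13 counts in shJUP and 11, 8 and 6 in shNC. All 3 knockdown libraries lay above the controls, with means of 0.794 ± 0.135 and 0.452 ± 0.143 CPM (SD, n = 3 each) and a log2 difference of 0.80 (SE 0.39). Counts this small carry wide 95% counting intervals (exact Poisson), 6.92 to 22.2 for the 13 counts of shJUP 3 and 5.49 to 19.7 for the 11 counts of shNC 1, so these neighbouring libraries are not separated.

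**Figure D2:**
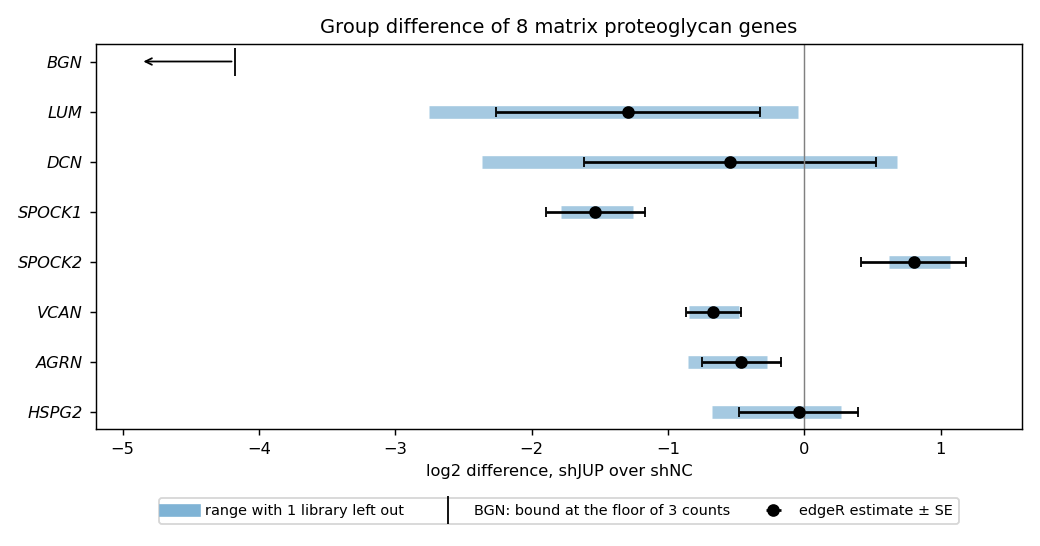
The log2 difference of shJUP over shNC (horizontal axis) for 8 proteoglycan genes, as the edgeR estimate with its SE (points and bars) and the range of the estimate with each library left out in turn (blue bands). BGN is drawn as a bound because it had 0 counts in shJUP, and the bands of DCN and HSPG2 cross 0.

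Of the 10 members 8 passed the low-count filter, 7 with a log2 difference below 0 and 1 above. Lower levels in each knockdown library than in each control were seen for 3 members (BGN, VCAN and SPOCK1), as for 8.66% of all tested genes, and higher levels for 1 (SPOCK2), as for 8.37%. Lower levels than in the control of the same number in all 3 pairs were seen for 5 of the 8 tested members, as for 22.5% of all tested genes. The edgeR quasi-likelihood test with Benjamini-Hochberg adjustment called 0 of 15867 genes (0%) and so no member, with 1594 genes at an unadjusted p under 0.05. DESeq2 called BGN and SPOCK1 lower, where it called 0.586% of all genes lower, and gave SPOCK2 no adjusted p with or without the block. DESeq2 with the library number as a block called BGN, VCAN and AGRN lower but not SPOCK1, against 2.43% of all genes. Without its low-count filter edgeR called BGN lower, against 0.0126% of all genes. Since the members were put forward with this comparison known, nothing is read from these counts.

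Compared per kb of exon, the members spanned several orders of magnitude. In the controls VCAN was at 89.7 ± 19.4, AGRN at 30.3 ± 6.39, SPOCK1 at 11.2 ± 3.94 and HSPG2 at 11.0 ± 3.98 CPM per kb (SD, n = 3 each). LUM followed at 2.39 ± 2.43, BGN at 1.19 ± 0.638, DCN at 0.273 ± 0.281, SPOCK2 at 0.0689 ± 0.0217 and PRELP at 0.0221 ± 0.00585 CPM per kb. VCAN was above AGRN, and AGRN above SPOCK1 and HSPG2, in 6 of 6 libraries. SPOCK1 and HSPG2 exchanged places, with SPOCK1 higher in 2 of 6 libraries. Over the 6 libraries the ranges of LUM, BGN, DCN and SPOCK2 overlapped from each to the next. In the controls alone BGN (0.665 to 1.90) lay above DCN (0.0430 to 0.586 CPM per kb) without overlap. This depended on the lengths used. Without division by length the control ranges overlapped, at 1.63 to 4.67 CPM for BGN and 0.552 to 7.53 CPM for DCN. VCAN made up 54.2% to 66.5% of the summed per-kb level of the 10 members in each library. The lengths are the union of all exons in GENCODE 29 and may not match the annotation used for counting. With the length of the transcript with the longest coding part instead (chosen with the values in view) the order of the control means was the same. DCN was then at 0.490 and AGRN at 44.5 CPM per kb in the controls. The control ranges of BGN and DCN overlapped with that length.

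**Figure D3:**
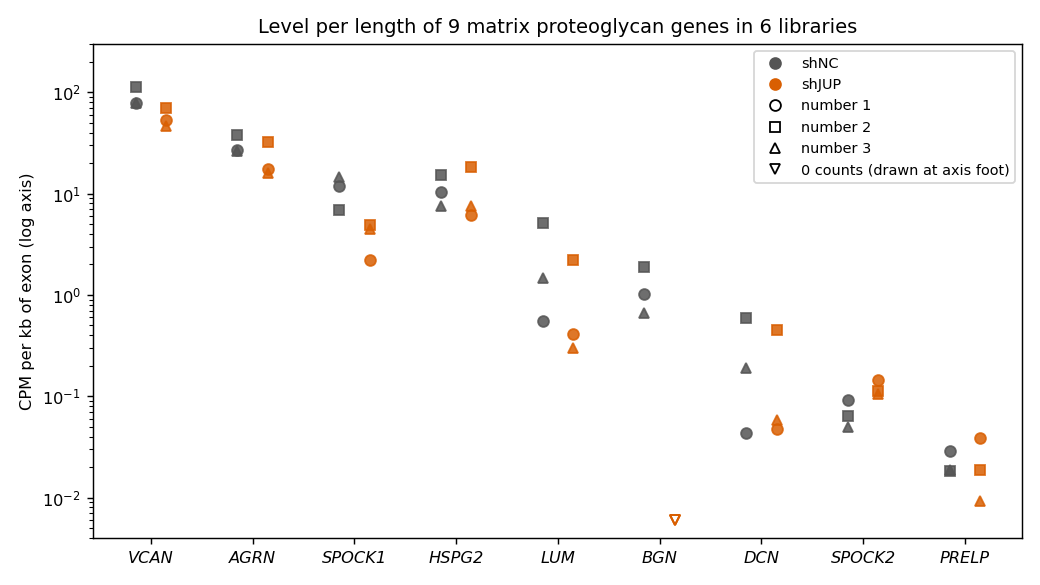
CPM per kb of exon (vertical log axis) of the 9 members with any count, ordered by their mean in shNC. Grey symbols are shNC and orange symbols shJUP libraries, and the symbol shape gives the library number; the open triangle at the foot stands for the 3 libraries with 0 counts of BGN. VCAN is highest in each library, and the number-2 squares of LUM and DCN stand above the other numbers.

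How the members vary within the groups was not used to choose them, so the differences between library numbers were tested. In a fit with group and library number, edgeR's quasi-likelihood test of the number terms called 100 of 15867 genes (0.63%) and 0 of the 8 tested members. At an unadjusted p under 0.05, 5 of the 8 members stood out (DCN, LUM, HSPG2, AGRN and VCAN), as did 21.1% of all tested genes. The adjusted p-values in this edgeR fit were 0.0708 for DCN, 0.0754 for LUM, 0.103 for AGRN, 0.107 for HSPG2 and 0.12 for VCAN. The DESeq2 likelihood-ratio test of the same terms called these 5 members (adjusted p = 2.05e-05 for DCN and 3.63e-06 for LUM), against 6.6% of all genes. Each of these 5 was highest in number 2 of both groups, a pattern shown by 25.8% of all tested genes.

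Number 2 exceeded the mean of numbers 1 and 3, on the log2(CPM + 0.5) scale, by 2.44 in shJUP and 2.19 in shNC for DCN. For LUM the excess was 2.20 and 2.30. Across all tested genes an excess of at least 1 was seen in 3.89% of genes in shJUP and 5.16% in shNC. HSPG2 exceeded by 1.42 in shJUP and 0.80 in shNC, AGRN by 0.96 and 0.50, and VCAN by 0.48 and 0.51. SPOCK1 went the other way in the controls (-0.94) and not in the knockdown libraries (0.63), and did not pass the number test (edgeR adjusted p = 0.642). BGN was highest in number 2 of the controls (1.04 above the mean of the others), with an edgeR adjusted p of 0.335 for the number terms. JUP was also highest in number 2 of each group. What the numbers share was not tested.

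**Figure D4:**
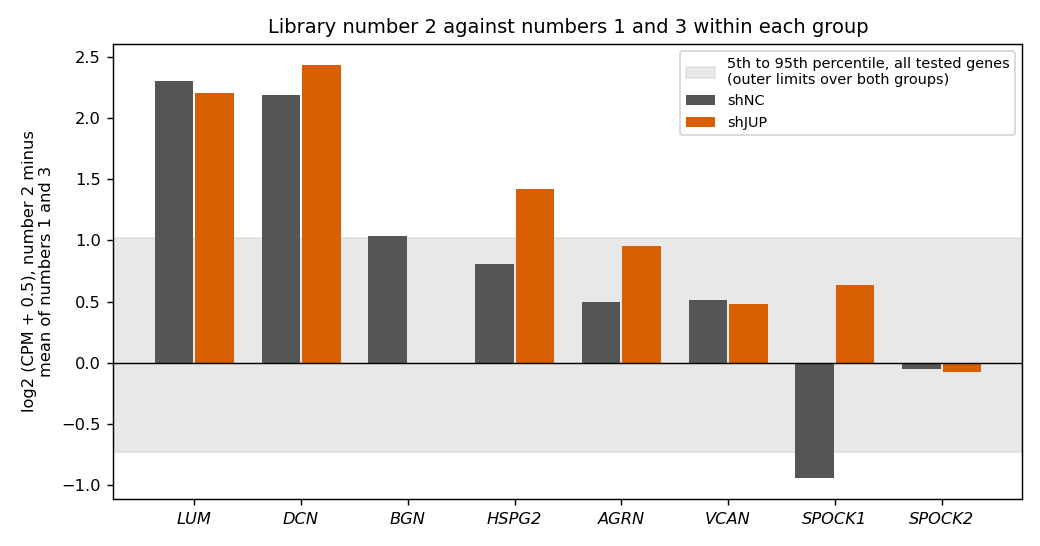
Excess of library number 2 over the mean of numbers 1 and 3 (log2 of CPM + 0.5, vertical axis) within shNC (grey) and shJUP (orange) for 8 proteoglycan genes. A single grey band stands for the 5th to 95th percentile over all tested genes. These percentiles differed by group, at -0.61 and 0.88 in shJUP and -0.73 and 1.02 in shNC. In shJUP, HSPG2 (1.42) and AGRN (0.96) also exceeded the shJUP 95th percentile. DCN and LUM lie above the band in both groups, and SPOCK1 has opposite signs.

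Among the 5 members highest in number 2 of both groups, Pearson's r of log2 CPM over the 6 libraries ranged from 0.61 for VCAN and HSPG2 to 0.95 for DCN and LUM. It was 0.68 for DCN and VCAN and 0.92 for LUM and AGRN. BGN correlated at 0.87 with VCAN and 0.77 with SPOCK1, which were also lower in shJUP, and at 0.28 with DCN. SPOCK2 had a negative r with each of the other tested members, reaching -0.83 with SPOCK1. The 6 points share their libraries and groups, so these values are a description. The 5 members were grouped by their shared highest libraries, which by itself raises r among them.

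Among 9859 tested genes with a mean of at least 10 CPM, those most like BGN over the 6 libraries were ZNF253 (r = 0.997), C1QTNF6 (0.994), RFX7 (0.990), MNT (0.985) and MCL1 (0.983). C1QTNF6, a secreted protein with a C1q domain, was at 10.4, 9.21 and 9.44 CPM in shJUP 1 to 3 and at 20.0, 22.0 and 17.3 CPM in shNC 1 to 3. MCL1, an anti-apoptotic protein of the BCL2 family, was at 474 ± 19.2 against 671 ± 44.8 CPM (SD, n = 3 each). All 5 were present in the knockdown libraries, unlike BGN, and each was lower in all knockdown libraries than in all controls. BGN had 0 counts in 3 of these 6 libraries, where its log2 level is set by a prior count of 2, and its group difference was used to choose the family, so this list is a description. Those most like SPOCK1 were PCDHB13 (r = 0.995), LAMP1 (0.991), COL4A2 (0.988), DCTN6 (0.985) and ZNF227 (0.982). These 5 were likewise lower in shJUP without overlap, and SPOCK1 was also used in the choice of the family. COL4A2, a chain of basement membrane collagen IV, was at 430, 565 and 547 CPM in shJUP 1 to 3 and at 728, 634 and 726 CPM in shNC 1 to 3, and LAMP1, a lysosomal membrane protein, at 233 ± 12.8 against 280 ± 21.9 CPM.

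Other genes of proteoglycan biology were taken from 8 lists with 143 genes, of which 102 were tested. Of these, 72 lay below 0 and 30 above, with a median log2 difference of -0.12, against 8159 below and 7708 above and a median of -0.01 over all tested genes. The edgeR test called 0 of the 102, with 17 at an unadjusted p under 0.05, against 1594 of all 15867 tested genes. DESeq2 called 4 lower (0.586% of all genes) and 0 higher (0.674% of all genes). With the block for the library number DESeq2 called 12 lower and 2 higher, against 2.43% and 1.93% of all genes.

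The proteases that cleave matrix proteoglycans held all 4 of these DESeq2 calls. Of 16 tested, 11 lay below 0, with a median of -0.82. BMP1, which removes the propeptide of biglycan, was at 67.8, 76.2 and 63.6 CPM in shJUP 1 to 3 and at 133, 114 and 118 CPM in shNC 1 to 3. The groups did not overlap, with a log2 difference of -0.81 (SE 0.12) and an adjusted p of 5.56e-06 by DESeq2 and 0.324 by edgeR. The related protease TLL1 was at 5.76 ± 1.48 against 23.1 ± 6.76 CPM and the gelatinase MMP2 at 106 ± 23.1 against 266 ± 20.1 CPM (SD, n = 3 each). ADAMTS15, a protease of versican and aggrecan, had a log2 difference of -0.99 (SE 0.24, DESeq2 adjusted p = 0.0191). With the block DESeq2 also called HTRA1, CTSS and MMP7 lower and ADAMTS1 higher.

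Among other secreted proteoglycans 6 of 7 tested genes lay below 0 (median -0.46). COL18A1, a basement membrane collagen with heparan sulfate chains, was at 143, 244 and 156 CPM in shJUP 1 to 3 and at 205, 405 and 193 CPM in shNC 1 to 3, highest in number 2 of each group. With the block DESeq2 called it lower (adjusted p = 0.00394), but without the block it did not (0.53). ESM1, a small dermatan sulfate proteoglycan, was at 20.7 ± 11.6 against 33.7 ± 9.67 CPM and was likewise called lower with the block alone (adjusted p = 0.0243 by DESeq2). SRGN, an intracellular proteoglycan of secretory granules, was at 2.00 ± 1.77 against 0.895 ± 0.572 CPM. Of 13 other small leucine-rich repeat genes 2 were tested, ECM2 (log2 -1.01, SE 0.66) and TSKU (-0.14, SE 0.26).

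Proteoglycans of the cell surface showed no call by edgeR or by either DESeq2 fit, with 5 of 12 tested genes above 0 and a median of -0.07. CD44, the hyaluronan receptor, was at 1035 ± 49.8 against 877 ± 64.4 CPM (SD, n = 3 each), and each knockdown library lay above each control. TGFBR3, a TGF-beta co-receptor that carries glycosaminoglycans, was at 12.9 ± 1.84 against 8.73 ± 2.13 CPM, also without overlap. Syndecan-3 (SDC3) was at 67.7 ± 13.1 against 85.4 ± 7.94 CPM, with overlapping groups.

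Enzymes that build or edit the sugar chains had list medians near 0. Of 21 tested genes for the linker, chondroitin and dermatan sulfate, 15 lay below 0 (median -0.09). Of 18 for heparan sulfate synthesis and editing, which include SULF2 and HPSE, 13 lay below 0 (median -0.09). CHSY1, a chondroitin synthase, was at 109 ± 3.18 against 130 ± 6.12 CPM and CHST11, a chondroitin sulfotransferase, at 66.0 ± 18.1 against 95.8 ± 14.0 CPM (SD, n = 3 each), both without overlap. CHST3, another chondroitin sulfotransferase, had a log2 difference of 0.31 (SE 0.16). DESeq2 with the block called the heparan sulfate enzymes HS2ST1 (log2 -0.51, SE 0.16, adjusted p = 0.00855) and NDST1 (-0.56, SE 0.21, adjusted p = 0.0282) lower. HS3ST3A1, a heparan sulfate 3-O-sulfotransferase, had a log2 difference of 0.50 (SE 0.23).

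The hyaluronan list, which joins synthesis and breakdown genes, was the one with a median above 0 (0.51, 5 tested genes). Of these genes 3 lay above 0 and 2 below, and the median was the value of HYAL3, at a mean of 2.85 CPM. HAS3, a hyaluronan synthase, was at 26.6, 44.9 and 63.6 CPM in shJUP 1 to 3 and at 16.8, 19.7 and 30.6 CPM in shNC 1 to 3. Each knockdown library was above the control of its number while the groups overlapped, and DESeq2 called HAS3 higher when the block was included (adjusted p = 1.18e-05) but not otherwise (0.121). HAS2 was at 147, 8.68 and 9.44 CPM in shJUP 1 to 3 and at 0.497, 6.42 and 5.81 CPM in shNC 1 to 3, so its mean rested on shJUP 1. CEMIP2, a hyaluronidase of the cell surface, was at 76.7 ± 4.93 against 107 ± 17.1 CPM without overlap, and was called lower by DESeq2 with the block (adjusted p = 0.0375). Among 21 tested receptors and binding partners 16 lay below 0 (median -0.15) and 0 were called by edgeR or either DESeq2 fit. KDR had a log2 difference of 0.63 (SE 0.22), TGFB1 of -0.39 (SE 0.19) and ITGB1 of -0.19 (SE 0.11).

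**Figure D5:**
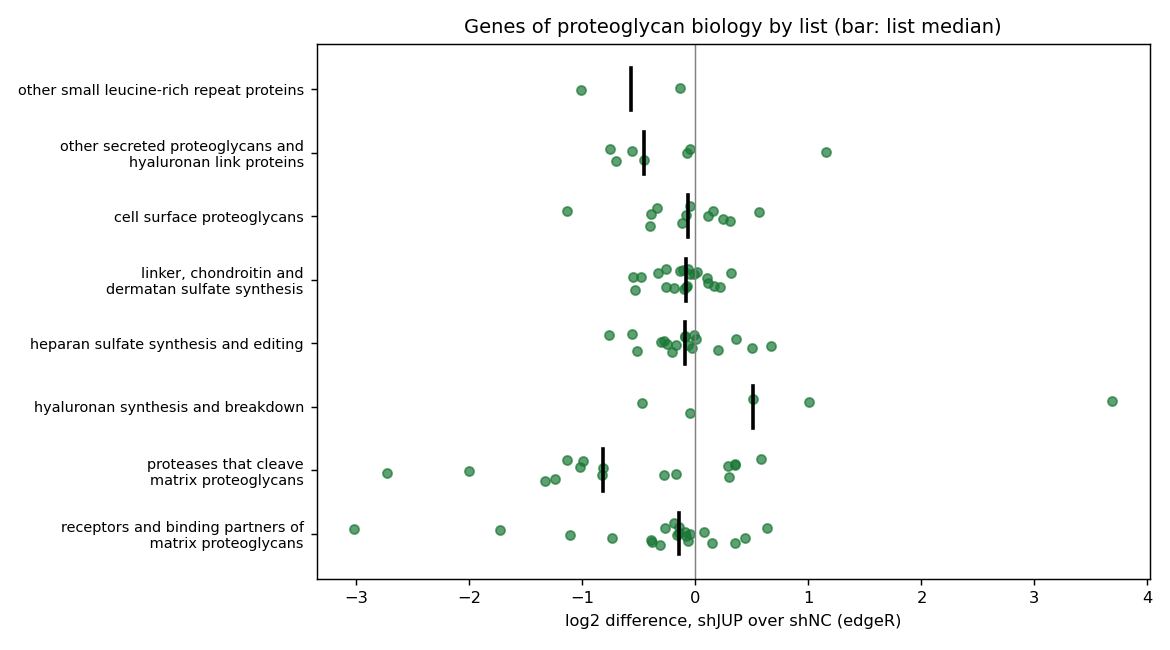
The log2 difference of shJUP over shNC (horizontal axis, edgeR) of the tested genes in 8 lists of proteoglycan biology, with 1 point per gene and a black bar at each list's median; points are spread vertically for visibility. The median of the protease list is -0.82 and that of the hyaluronan list 0.51, whose highest point is HAS2.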

How the data were processed

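The authors deposited unscaled expected counts per Ensembl gene for the 6 libraries. The submitters' processing notes list STAR 2.7.9a, RSEM 1.3.3, edgeR 3.32.1 and DESeq2 1.26.0 without saying what each did. Build, annotation and strand setting: not given in the sources used here. Of 60695 rows, 31 were stray text and were dropped; counts were not whole for 33.9% to 36.3% of genes above 0 and were rounded. Groups were compared with edgeR 4.0.16, run in R 4.3.3 (filterByExpr, 15867 genes; TMM factors 0.978 to 1.03; two-sided quasi-likelihood test; threshold 0.05). SEs were taken as the absolute log2 difference over the square root of F. DESeq2 1.42.0 and limma-voom 3.58.1 were alternatives, besides other scalings and filters, the block and libraries left out. Intervals and floors cover counting error only.

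The members, lists and settings were chosen with earlier results of these data known. The named genes are the members, JUP, up to 3 genes per related list with the smallest edgeR p and a mean of at least 1 CPM, and 5 genes most like BGN and SPOCK1. Further DESeq2 calls, marker genes and HYAL3 were named after their values were seen. Within groups, chi-square per gene between replicates was 10.4 to 63.0, above sampling noise, so none was treated as a repeat. Same-numbered libraries deviated together from their group means (r = 0.14 for number 1, 0.51 for number 2 and 0.20 for number 3), though shJUP 3 also did with shNC 1 (0.39) and shJUP 1 with shNC 3 (0.15). Both of these values exceeded the r of the same shJUP library with its own number, so pairing by number was not established for numbers 1 and 3. Each same-number r exceeded 0.1, the limit used for printing values with the block where they change a call. Those values, and the percentages of same-number controls, rest on this numbering. The main comparison has no block. Leukocyte, endothelial and mesothelial markers were read as levels: 1 of 8, 5 of 8 and 5 of 6 reached 1 CPM. On simulated counts with 200 changed genes edgeR recovered 61% of 2-fold and 98% of 4-fold group differences (14 unchanged genes called) and DESeq2 78% and 99% (51 unchanged genes called). For library number edgeR recovered 96% of 4-fold differences (33 unchanged genes called). These shares hold for the simulated counts. In the real libraries TLL1, with a log2 difference of -2.00, had an edgeR adjusted p of 0.324. The 0 calls of edgeR between the groups therefore do not show that differences of this size are absent.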

Additional observations from a re-analysis of the deposited data

How the results depend on the processing

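The number of members called between the groups was 0 with edgeR at either other scaling, with the stricter filter (1 CPM in 3 libraries), with limma-voom, with the replicate block, with each library left out and without both number-2 libraries. It was 1 without the filter, 2 with DESeq2, 3 when DESeq2 also held the replicate block, and 3 when DESeq2 left out number 2 in both groups, a fit that called VCAN, AGRN and SPOCK1 and gave BGN, DCN and SPOCK2 no adjusted p. In the same comparison the count over all genes, 0 in the main edgeR fit, was 5 without the filter, 200 with DESeq2, 1 with the replicate block, 692 with DESeq2 and the replicate block, 49 in edgeR without number 2 and 673 in DESeq2 without number 2. Among related genes it was 2, 4, 1, 14, 3 and 14 in that order. For library number, 0 members became 3 without the filter and 5 with DESeq2, and from 0 to 2 over the leave-one-out fits (2 without shJUP 1, 1 without shNC 1). The 100 genes became 470 without the filter, 1047 with DESeq2, and from 3 to 217 over the leave-one-out fits (217 without shJUP 1, 6 without shJUP 2 or shJUP 3, 3 without shNC 2 and 9 without shNC 3). The cause was not tested. With 1 library left out the log2 difference ranged from -2.36 to 0.68 for DCN and from -0.68 to 0.27 for HSPG2. The other 6 tested members kept their sign in each setting run. FMOD, with 0 counts in all 6 libraries, and PRELP, with 1 to 4, were too low to test at this depth.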
